A study of Mus musculus with 12 samples.

Results

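The cytosolic ribosomal protein genes were examined in mouse cells cultured as astrocytes, in spheres made from them and in 2 fresh brain cell suspensions. A gene was a member if the deposited table calls it protein coding and names it Rpl or Rps with a number and at most 1 letter a, x or l, or Rplp0, Rplp1, Rplp2, Rpsa or Fau. This rule took 81 of the 55862 genes in the table, 49 of the large subunit and 32 of the small subunit. It used names only and no measured value. All samples are labelled C57BL/6, with C57BL/6J given for both suspensions in the study's methods, and no transgene or deletion is named. Each group had 3 samples. ASTs were cells isolated as primary cortical astrocytes of newborn mice, grown as a monolayer in medium with serum and taken at day 0 of incubation as the negative control. A-iSCs were ASTs kept for 5 days on agarose, where they gathered into spheres. P56-NPCs (a suspension dissociated from the adult subependymal zone, postnatal day 56) and P0-NPCs (a suspension dissociated from the hippocampus at postnatal day 0) served as the positive controls. No marker sort of either suspension is named in the sources used here. The study's methods speak of independent experiments in general but do not say whether these replicates came from separate animals or cultures, so the p-values measure the spread between these samples.

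Every protein of a cell is made on cytosolic ribosomes, each of which joins a large and a small subunit built from ribosomal RNA and a set of ribosomal proteins, most of them present as a single copy. Ribosomal protein mRNAs are short, abundant and made in step with one another, and most start with a run of pyrimidines, the terminal oligopyrimidine (TOP) tract, through which the kinase mTOR and the RNA-binding protein Larp1 control how actively they are translated. Growing cells, such as dividing glia in serum, spend a large part of their transcription on ribosomes, while differentiated cells spend less. A few members have paralogs that replace or accompany them, and many have processed pseudogenes in the genome.

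The labels were first checked against cell type markers. The 7 astrocyte genes Gfap, Aqp4, Slc1a3, Slc1a2, Aldoc, S100b and Gja1 summed to 116 to 133 FPKM in ASTs, the lowest of the 4 groups, against 1146 to 2396 in A-iSCs, 2787 to 3015 in P56-NPCs and 224 to 288 in P0-NPCs. These markers thus go against the AST label, and AST is used below as the name of the group only. In the P56-NPC samples, 5 oligodendrocyte genes (Mbp, Mog, Mag, Mobp and Cldn11) summed to between 8719.8 and 9754 FPKM, against at most 23.9 in the other groups. The neural precursor list of Sox2, Nes, Pax6, Egfr and Hes5 summed to 119 to 154 FPKM in P56-NPCs and 131 to 137 in P0-NPCs, both below the 260 to 324 in A-iSCs and the 329 to 352 in ASTs. Hes5 went against this order, with a mean under 1 FPKM in ASTs alone. The sums, in which abundant genes weigh most, thus go against the labels of both NPC groups, whose names are used for the groups only. The paper, by contrast, reports stem cell genes such as Sox2 and Pax6 as upregulated in the spheres. It describes the sphere patterns as close to those of both NPC groups. FPKM is the number of fragments scaled to the length of the gene and to a size set for each sample. In the deposited values this size differed from the number of fragments counted. It was 0.744 to 0.779 times that number for P56-NPC samples, but 1.15 to 1.22 times for P0-NPC samples. The range was 0.941 to 0.985 for AST samples and 1.10 to 1.15 for A-iSC samples. Scaling by library size, used further on, takes the counted fragments instead. The P0-NPC samples held neuronal genes at 761 to 937 FPKM in sum, where A-iSCs held 47.5 to 63.6. Microglial genes summed to 1084 to 1495 FPKM in A-iSCs and 96.5 to 127 in ASTs, while fibroblast and mural genes summed to 1881 to 2267 FPKM in ASTs and 32.8 to 66.0 in A-iSCs. Markers of several cell types were thus present in the suspensions and the cultures, and the part of these cell types in the differences below was not tested. In such bulk samples, fewer cells of a type and less RNA per cell cannot be told apart. The fragments counted per sample, recovered from the FPKM, ranged from 17077780 to 24452419, of which 480343 to 1033844 fell on members. Genes of the mitochondrial genome took 16.5% to 17.6% of fragments in P56-NPCs and 2.94% to 7.03% elsewhere.

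The level of members per length depended on the length used. Rplp1 was highest with a mean of 1831 FPKM over the 12 samples, followed by Rps15 with 912 FPKM and Rpl36 with 733 FPKM. The table divides by the union of all annotated exons, 383 to 6270 bases for members with a median of 1739, whereas their principal mRNAs had 271 to 3706 bases with a median of 680.5 in GENCODE M21 (80 members with such an mRNA). On the deposited scale the 75th percentile over the 77 members tested with a known mRNA was 2.49 times the 25th percentile, and per kilobase of mRNA it was 1.68 times. The members were therefore more alike per mRNA than in FPKM. Rpl41, which encodes the smallest ribosomal protein, moved from rank 4 to rank 2 when the length of its mRNA was used.

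Another 6 members stood at the bottom. Rpl39l, Rpl3l and Rpl10l were not tested, since no group reached a mean of 1 FPKM. Their means over the 12 samples were 0.278 and 0.160 FPKM for Rpl39l and Rpl3l, and Rpl10l was listed at 0 in every sample. These are the paralogs of Rpl39, Rpl3 and Rpl10, known from testis and striated muscle. Rps10 (1.41 FPKM), Rpl24 (4.29 FPKM) and Rpl13a (15.1 FPKM) were also low, but 91.6%, 71.5% and 59.3% of their mRNA lies in exons of another annotated gene on the same strand, and fragments shared by 2 genes may not have been counted. For Rps10, 98.1% of the fragments on the gene and its copies were counted on copies. The values of these 3 members may therefore be too low. Together, 315 ribosomal protein pseudogenes held 6.19 to 7.24 fragments per 100 on the members, and copies took 76.1% of the sum for Rpl17, 47.4% for Rpl21, 44.0% for Rps27 and 37.4% for Rps12.

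RefSeq promoter windows (GRCm38.p6, 250 bases before to 50 after a start site) were at hand for 61 of the 81 members, 73 windows in all. The core of the TCT initiator, CTTTC, lay within 10 bases of the start on the gene strand in 11 of the 73 windows (15.1%) and in 2.44% of all 32851 promoters of the table. CCGGAAG, the letters of an ETS type site, was found on either strand in 35.6% of member windows and 8.86% of all, and AAGATGG, a YY1 type site, in 16.4% and 6.34%. Matches of the latter pair can share the letters AAG. Below are the 20 bases around the start, 10 on each side, with CTTTC in capitals. They are printed for the members with a window whose values in all 4 groups are given further on, other than Rpl41. The Rpl41 window, at chr10:128549159-128549178 on the minus strand, holds no CTTTC.
Rps27l, chr9:66946403-66946422, plus strand: gggcttcagggtcactaacg
Rps27l, chr9:66946076-66946095, plus strand: cctccccgccgcctctatcc
Rps27, chr3:90213639-90213658, minus strand: cgCTTTCgctcctttccggc
Rps2, chr17:24720053-24720072, plus strand: gtcgagatctcgcgcttctt
Rps21, chr2:180257439-180257458, plus strand: agtgagcaggtaggcctcgg
Rps21, chr2:180257369-180257388, plus strand: aggacccgccctcctgccca
Rpl7a, chr2:26910797-26910816, plus strand: ctcttCTTTCtttctccagc
Rplp0, chr5:115559457-115559476, plus strand: cgggtttcgaggaccgcctg
Rps27l and Rps21 have 2 annotated starts each. Rps27 and Rpl7a hold CTTTC here, while Rps27l, Rps2, Rps21 and Rplp0 do not. The windows are centred on annotated starts, which can differ from the true ones by some bases.

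AST replicate 2 and A-iSC replicate 3 stood apart in the level of members. Of the 78 tested members, 76 were highest in replicate 2 among the ASTs, by a median of 0.63 on the log2 scale against the other 2, while 70 were lowest in replicate 3 among the A-iSCs, with a median difference of -0.47. Over all expressed genes the same medians were 0.003 and -0.0009, but genes moved in both directions. AST replicate 2 was the highest of its group for 44.5% of all expressed genes and the lowest for 44.1%. A-iSC replicate 3 was the highest of its group for 43.9% and the lowest for 43.6%. Both samples thus stood apart beyond the members. These samples lie in the 2 groups whose comparison is the study's main one. Most counts of members and lists in comparisons with ASTs or A-iSCs are given with and without them, as are some of the named genes whose call changed. Others changed too. Without AST replicate 2, Rplp1 in P56-NPCs minus ASTs went from 0.22, not called, to 0.39, called. Without A-iSC replicate 3, Fau in A-iSCs minus P0-NPCs went from 0.39, not called, to 0.52, called. The fits with the fragments of copies added were not repeated without them.

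Members took a smaller share of all fragments in P56-NPCs than in the other 3 groups. The share was 3.46%, 4.80% and 3.45% in the 3 AST samples, 4.06%, 4.05% and 3.07% in A-iSCs, 2.31%, 2.23% and 2.49% in P56-NPCs and 3.62%, 3.42% and 4.01% in P0-NPCs. The P56-NPC samples were all below the other 9, while the 3 remaining groups overlapped. Means were 3.90% ± 0.775 in ASTs, 3.73% ± 0.571 in A-iSCs, 2.34% ± 0.133 in P56-NPCs and 3.68% ± 0.302 in P0-NPCs (SD, n = 3). Without the mitochondrial genes in the total, the P56-NPC mean was 2.82% ± 0.154 and its highest sample, at 2.99%, was still below the lowest of the others, at 3.17%. Both subunits behaved alike, with means of 1.33% (large) and 1.01% (small) in P56-NPCs and 2.26% and 1.65% in ASTs.

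**Figure D1:**
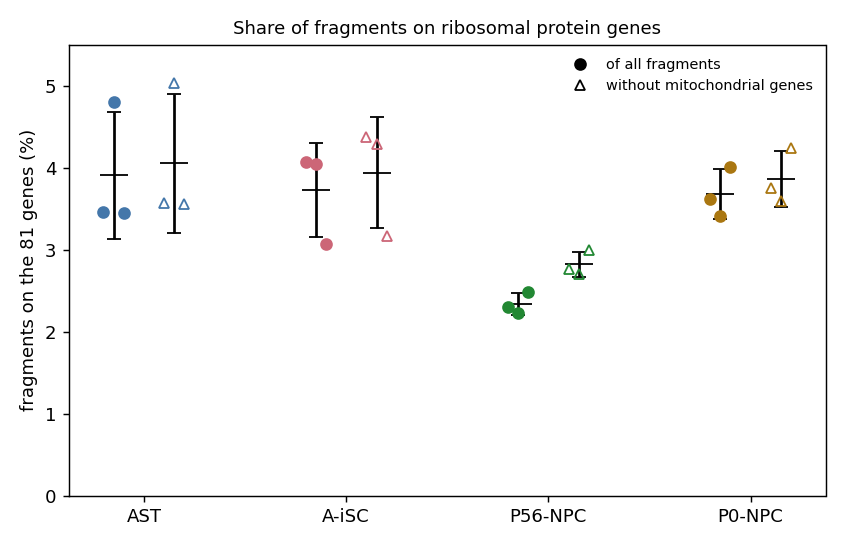
Share of fragments on the 81 ribosomal protein genes in each sample (y axis, percent), by group. Filled circles are shares of all fragments, open triangles leave mitochondrial genes out of the total, and lines give the mean and SD of 3 samples. The P56-NPC samples lie between 2.23% and 2.49%, below all others.

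**Figure D2:**
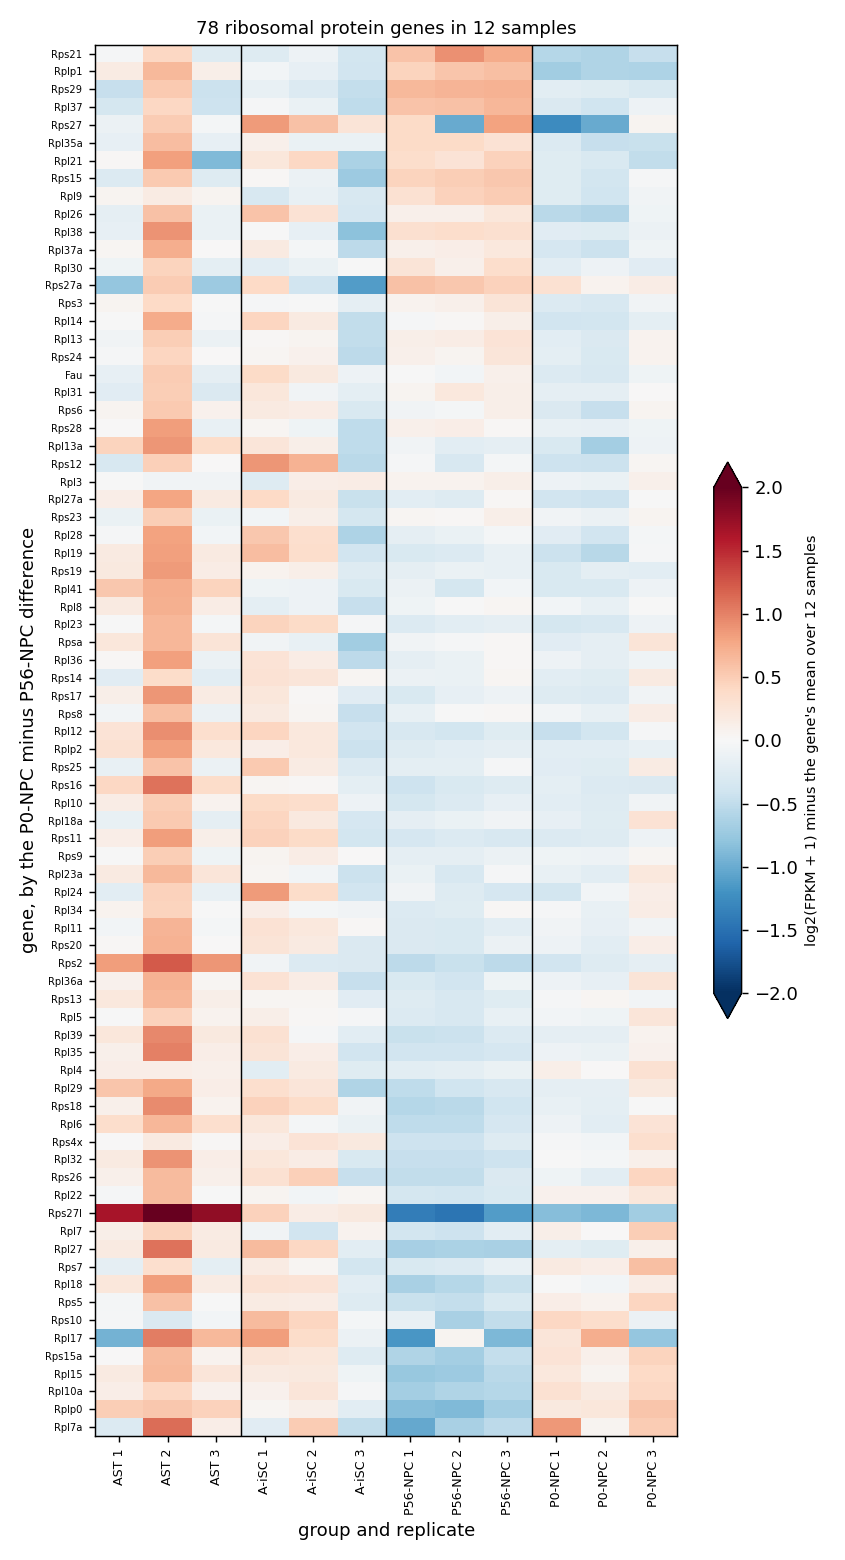
Expression of the 78 tested members (rows, ordered by the P0-NPC minus P56-NPC difference) in the 12 samples (columns). Colour is log2(FPKM + 1) minus the gene's mean over all samples, cut at 2 in either direction. AST 2 is high and A-iSC 3 low in nearly every row, and the P56-NPC columns change sign from the top rows to the bottom rows.

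The first comparison asked what 5 days in spheres did to the ribosomal protein mRNAs of ASTs. On the deposited scaling, 8 of the 78 members were lower in A-iSCs than in ASTs, 0 were higher and 70 were not called. Among all 14087 genes tested, 54.8% were called (25.2% higher and 29.6% lower). The median log2 fold change of members was -0.21, against -0.06 over all genes. At an unadjusted p under 0.05, 1 was higher and 11 lower, and limma-voom on the recovered fragments called 0 higher and 12 lower. The 8 lower members were Rps27l, Rps2, Rpl41, Rpsa, Rps16, Rpl8, Rplp0 and Rpl9. Scaling by library size alone gave 2 higher and 3 lower (31.9% and 20.9% of all genes), with a member median of 0.01 beside 0.13 for all genes, so the sign of the median depends on the scaling. Without AST replicate 2 the counts were 1 higher and 3 lower (22.4% and 27.1% of all genes, member median 0.00), and without A-iSC replicate 3 they were 2 and 3 (29.5% and 33.6%, member median -0.07). Without both samples 25 were higher and 10 lower, where 33.8% of all genes were higher and 39.1% lower, so the higher members were near the share of all genes. The member median was then 0.13, a shift whose direction follows from leaving out the AST sample with the highest and the A-iSC sample with the lowest member levels. All 8 were also lower in that last fit, and Rps27l and Rps2 were lower in all 16 alternatives.

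Rps27l differed most of all members in each comparison with ASTs. It encodes a paralog of the small subunit protein eS27, is a known target of p53 and lies at chr9:66946086-66949516 (GRCm38, plus strand). Its values were 289, 424 and 316 FPKM in ASTs, 127, 103 and 105 in A-iSCs, 34.5, 32.6 and 41.7 in P56-NPCs and 50.6, 49.1 and 56.5 in P0-NPCs. The 4 groups did not overlap, in the order ASTs, A-iSCs, P0-NPCs and P56-NPCs. The log2 fold change was -1.60 ± 0.19 (SE, limma adjusted p = 3.6e-04) for A-iSCs minus ASTs, -3.20 ± 0.16 (SE, limma adjusted p = 2.0e-06) for P56-NPCs minus ASTs and -2.68 ± 0.16 (SE, limma adjusted p = 2.0e-06) for P0-NPCs minus ASTs. It was called in all alternatives of scaling, filter, model and left-out sample, from -1.73 to -1.36, -3.53 to -3.03 and -2.79 to -2.38. A-iSCs remained above P56-NPCs, by 1.60 ± 0.14 (SE, limma adjusted p = 6.2e-05), and above P0-NPCs, by 1.08 ± 0.13 (SE, limma adjusted p = 2.1e-04).

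Its paralog Rps27 did not follow it. Rps27, at chr3:90212522-90213651 (minus strand), had 149.8, 233 and 158 FPKM in ASTs, 294, 245 and 194 in A-iSCs, 212, 80.5 and 284 in P56-NPCs and 67.5, 80.9 and 168 in P0-NPCs. The replicates of the NPC groups were far apart, and P56-NPC replicate 2 was the lowest of its group. Fragments on Rps27rt, a nearly identical retrogene on chromosome 9, moved the other way, with 4572 in P56-NPC replicate 2 beside 2368 and 1928 in the other 2, where Rps27 had 1348, 3842 and 4880. Fragments of such copies cannot be assigned with certainty, so only the sum is firm. The log2 fold change of Rps27 in P0-NPCs minus ASTs was -0.85 ± 0.34 (SE, limma adjusted p = 0.046) and without AST replicate 2 -0.66, not called, but with the fragments of its copies added it was 0.23 ± 0.20 (SE, limma adjusted p = 0.31). With copies added, Rps27 was higher in A-iSCs than in ASTs by 0.68 ± 0.24 (SE, limma adjusted p = 0.042), and against P0-NPCs the difference of 1.30 ± 0.33 (SE, limma adjusted p = 0.010) became 0.45 ± 0.19 (SE, limma adjusted p = 0.070). Rps27l thus took 52.8% ± 1.75 of the fragments on Rps27l, Rps27 and Rps27rt together in ASTs, 18.7% ± 2.92 in A-iSCs, 7.21% ± 0.443 in P56-NPCs and 12.8% ± 0.643 in P0-NPCs (SD, n = 3). This share does not depend on the scaling between samples, and the AST samples, at 51.4% to 54.8%, were far from all others.

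**Figure D3:**
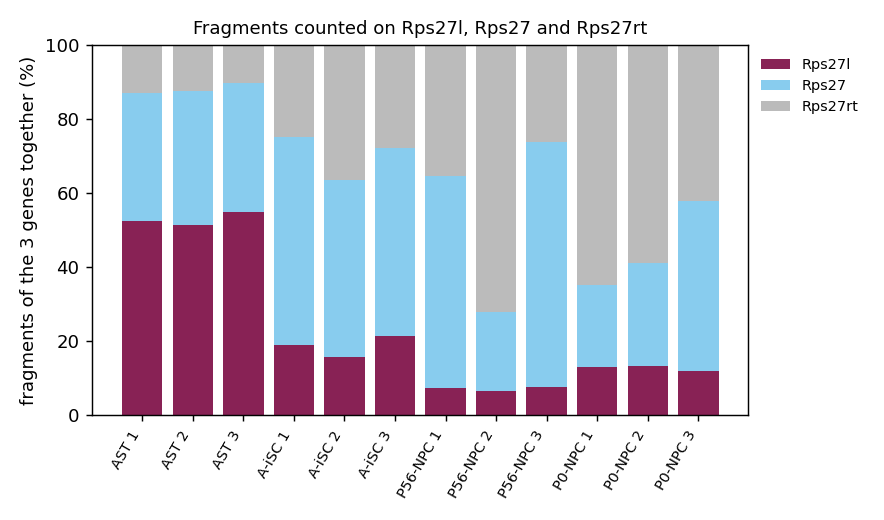
Fragments counted on Rps27l, Rps27 and the retrogene Rps27rt in each sample, as percent of the 3 genes together. Rps27l takes 51.4% to 54.8% in ASTs and 6.73% to 21.5% elsewhere, while the split between Rps27 and Rps27rt varies within P56-NPCs and P0-NPCs.

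Rps2 was also lower in all 3 groups than in ASTs. It encodes uS5, a protein near the mRNA entry of the small subunit. Its values were 801, 1042 and 819 FPKM in ASTs, 423, 371 and 365 in A-iSCs, 311, 329 and 309 in P56-NPCs and 343, 372 and 394 in P0-NPCs, so every AST sample was above every other sample. Against ASTs the log2 fold change was -1.19 ± 0.18 (SE, limma adjusted p = 0.0012) in A-iSCs, -1.48 ± 0.13 (SE, limma adjusted p = 3.8e-05) in P56-NPCs and -1.25 ± 0.17 (SE, limma adjusted p = 2.2e-04) in P0-NPCs. Rpl41 had 952, 1079 and 895 FPKM in ASTs and 616, 611 and 528 in A-iSCs, again without overlap, and differed by -0.74 ± 0.17 (SE, limma adjusted p = 0.0094). On the deposited scaling Rpl41 was near the A-iSC level in P56-NPCs (606, 513 and 633 FPKM) and P0-NPCs (532, 528 and 611 FPKM). Rpsa, the laminin receptor protein of the small subunit, differed between A-iSCs and ASTs by -0.69 ± 0.22 (SE, limma adjusted p = 0.034), and Rps16 by -0.66 ± 0.23 (SE, limma adjusted p = 0.041). Of the 16 alternatives, the calls of Rpsa, Rps16, Rpl8, Rplp0 and Rpl9 were kept in 8, 7, 7, 6 and 6, that of Rpl41 in 15 and those of Rps27l and Rps2 in 16. The call of Rpl9, -0.36 ± 0.13 (SE, limma adjusted p = 0.047), lay near the threshold, and relative to the median of all members it was not called at -0.18 ± 0.21 (SE, limma adjusted p = 0.57). Rpsa and Rps16 were not called without AST replicate 2, at -0.55 and -0.43, or without A-iSC replicate 3, at -0.49 and -0.58. Leaving out any 1 sample kept the calls of Rps27l, Rps2 and Rpl41 of the 8, and that of Rpsa was also kept without A-iSC replicate 1.

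In both NPC groups, more members were called lower than higher against ASTs. In P56-NPCs minus ASTs, 37 of 78 members were lower and 5 higher, while 78.9% of all 15146 genes tested were called (39.1% higher and 39.8% lower). Scaling by library size alone gave 56 lower and 0 higher, where 51.6% of all genes were lower and 31.2% higher. Leaving out AST replicate 2 gave 41 lower and 17 higher, beside 41.9% and 40.8% of all genes. Leaving out AST replicate 1 or 3 left 1 higher each (37.6% of all genes both times), and leaving out P56-NPC replicate 1, 2 or 3 gave 24, 23 or 32 lower (36.5% to 37.8% of all genes) and 3, 2 or 1 higher (36.8% to 38%). The member median was -0.41 beside -0.03 for all genes, and with library size scaling -0.75 beside -0.34. In P0-NPCs minus ASTs, 23 were lower and 0 higher, where 79% of 15010 genes were called (38.1% higher and 40.9% lower). Library size scaling left 7 lower and 5 higher (31.6% and 46.3% of all genes), with a median of -0.05 beside 0.21 for all genes, and 20 were lower and 2 higher without AST replicate 2 (42.2% and 39.1% of all genes). Leaving out P0-NPC replicate 1 or 2 gave 8 or 9 lower (38.1% and 38.9% of all genes), and the replicate block 12 (40.3%). In P0-NPCs minus ASTs, 0 members were higher at an unadjusted p under 0.05, and limma-voom called 0 higher and 33 lower (37.9% and 41% of all genes).

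The 2 suspensions differed in single members, in both directions. In P0-NPCs minus P56-NPCs, 25 of 78 members were higher and 19 lower, beside 78.8% of 15394 genes called (39% higher and 39.7% lower), and the member median was 0.03 against -0.01 for all genes. Library size scaling gave 65 higher and 4 lower, where 61.2% of all genes were higher and 22.3% lower, with a median of 0.65 beside 0.53. Without mitochondrial genes in that size the counts were 56 and 8 (54.5% and 27.4% of all genes), with 0.46 beside 0.37. On the deposited scaling with all 4 groups in the model, 14 were higher and 9 lower (35.6% and 36.7% of all genes). Of the 78 members, 48 had groups without overlap, 28 with all P0-NPC samples above and 20 with all below. Among all genes tested, 40.2% lay all above and 41.0% all below.

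Members higher in P56-NPCs came from both subunits. Rps21, a small protein of the 40S subunit, had 264, 360.5 and 225 FPKM in ASTs, 225, 251 and 208 in A-iSCs, 401, 509 and 452 in P56-NPCs and 180.5, 178 and 195 in P0-NPCs. P56-NPC samples were above all 9 others. The P0-NPC minus P56-NPC log2 fold change was -1.29 ± 0.10 (SE, limma adjusted p = 1.4e-05), and it stayed within -1.38 to -0.66 in all alternatives. Rps29, a zinc-binding protein of the 40S head, had 222, 439 and 226 FPKM in ASTs, 276, 254 and 218 in A-iSCs, 478, 489 and 496 in P56-NPCs and 264, 258 and 247 in P0-NPCs, and AST replicate 2 alone came near the P56-NPC values. Its difference was -0.93 ± 0.07 (SE, limma adjusted p = 1.2e-05). Rpl37, a zinc-binding protein of the large subunit, differed by -0.88 ± 0.09 (SE, limma adjusted p = 5.9e-05) with P56-NPC samples at 243, 247 and 258 FPKM and P0-NPC samples at 133, 123 and 152. Rpl35a, Rpl21, Rps15 and Rpl9 were also higher in P56-NPCs, with P0-NPC minus P56-NPC values of -0.75, -0.72, -0.70 and -0.66. With library size scaling these 4 were at -0.13, -0.10, -0.07 and -0.03 and none was called, while Rps21, Rps29 and Rpl37 stayed called at -0.66, -0.29 and -0.25.

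Members higher in P0-NPCs also came from both subunits, 15 of the large and 10 of the small one. Rpl7a, which binds the large ribosomal RNA, had 74.2, 197 and 99.0 FPKM in ASTs, 77.3, 129.5 and 64.0 in A-iSCs, 43.9, 57.5 and 62.4 in P56-NPCs and 165, 93.8 and 128 in P0-NPCs. The P0-NPC samples lay above the P56-NPC samples, with a difference of 1.20 ± 0.21 (SE, limma adjusted p = 0.0012), while the AST and A-iSC replicates spread widely. Rpl10a had 182, 167 and 197 FPKM in P0-NPCs and 91.7, 96.1 and 99.2 in P56-NPCs and differed by 0.92 ± 0.08 (SE, limma adjusted p = 2.3e-05). For Rpl15 the values were 190.3, 171 and 217 and 96.5, 98.8 and 113 FPKM and the difference was 0.90 ± 0.11 (SE, limma adjusted p = 1.3e-04). Rps15a, of the small subunit, differed by 0.86 ± 0.10 (SE, limma adjusted p = 1.3e-04). All 4 were called in every alternative of scaling, filter, model and left-out sample, and with library size scaling were at 1.83, 1.55, 1.52 and 1.48. The direction was counted by mRNA length. Among 19 members with an mRNA under 500 bases, 8 were higher in P56-NPCs and 3 in P0-NPCs, among 41 of 500 to under 1000 bases the counts were 9 and 16, and among 17 of 1000 bases and over 2 and 5. Across the 77 members with a known mRNA, the difference and log2 length had r = 0.25 and rho = 0.22, a weak relation among genes of the same libraries that has no test.

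**Figure D4:**
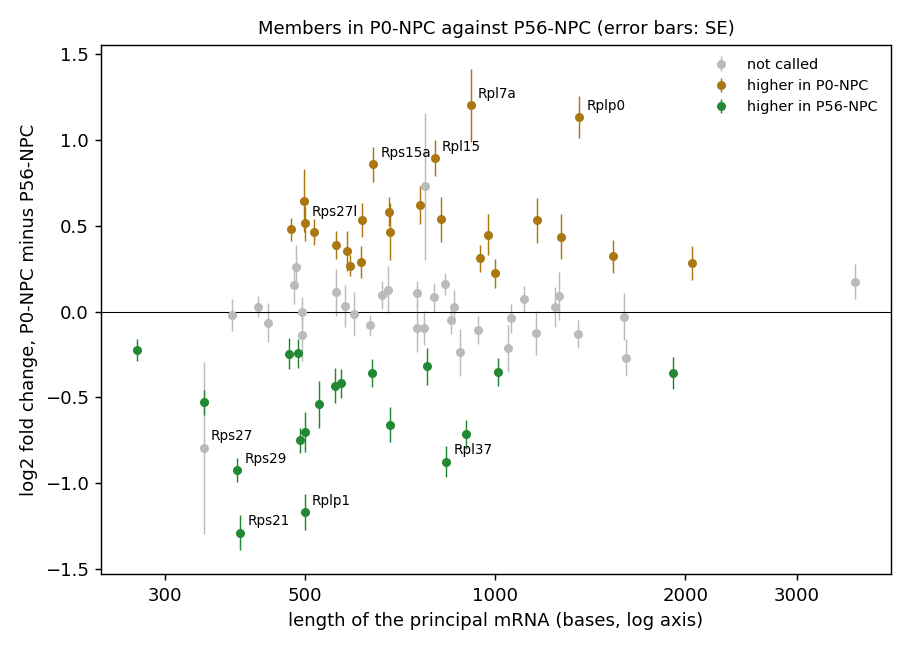
Log2 fold change, P0-NPC minus P56-NPC, of 77 members (y axis, error bars are SE) against the length of the principal mRNA (x axis, log scale). Coloured points were called by limma at an adjusted p under 0.05. Rps21, Rplp1, Rps29 and Rpl37 lie lowest, Rplp0 and Rpl7a highest.

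The 3 proteins of the ribosomal stalk, which recruits elongation factors, differed in their pattern over the groups. Rplp0, the base of the stalk, had 891, 918 and 866 FPKM in ASTs, 645, 683 and 544 in A-iSCs, 348, 341 and 393 in P56-NPCs and 719.5, 739 and 929 in P0-NPCs. P56-NPC samples were below all others. Its log2 fold change was, for P56-NPCs minus ASTs, -1.31 ± 0.11 (SE, limma adjusted p = 2.4e-05) and, for P0-NPCs minus P56-NPCs, 1.13 ± 0.12 (SE, limma adjusted p = 7.8e-05). Rplp1, one of the acidic proteins bound to it, went the other way with 1939, 2726 and 1881 FPKM in ASTs, 1676, 1556 and 1331 in A-iSCs, 2354, 2543 and 2625 in P56-NPCs and 1067, 1147 and 1126 in P0-NPCs. P0-NPC samples were the lowest, and the P0-NPC minus P56-NPC difference was -1.17 ± 0.11 (SE, limma adjusted p = 3.1e-05). The FPKM ratio of Rplp1 to Rplp0, free of the scaling between samples, was 6.97 ± 0.423 in P56-NPCs and 1.42 ± 0.180 in P0-NPCs, beside 2.44 ± 0.460 in ASTs and 2.44 ± 0.160 in A-iSCs (SD, n = 3). Rplp2, the partner of Rplp1, had 133, 136 and 139 FPKM in P56-NPCs and 136, 137 and 143 in P0-NPCs, a difference of 0.03 ± 0.06 (SE, limma adjusted p = 0.69). With library size scaling Rplp2 was higher in P0-NPCs by 0.66 ± 0.06 (SE, limma adjusted p = 1.6e-05), Rplp0 was at 1.76 and Rplp1 at -0.54, both still called.

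Rps27a is made as a fusion with ubiquitin and Fau as one with a ubiquitin-like protein. Rps27a had 68.5, 167 and 70.9 FPKM in ASTs, 155, 90.5 and 53.9 in A-iSCs, 178, 171 and 162 in P56-NPCs and 145, 123 and 130.1 in P0-NPCs. Its AST and A-iSC replicates spread widely and overlapped, and its call as higher in P56-NPCs than in ASTs, 0.86 ± 0.33 (SE, limma adjusted p = 0.044), was lost in 9 of 15 alternatives and stood at 1.28 without AST replicate 2. Between the NPC groups Rps27a and Fau differed by -0.36 and -0.25, both called, but library size scaling turned both to 0.27 and 0.39. Rpl5 and Rpl11, which with 5S RNA form the particle that binds Mdm2, were higher in A-iSCs than in P56-NPCs by 0.29 ± 0.10 (SE, limma adjusted p = 0.040) and 0.44 ± 0.11 (SE, limma adjusted p = 0.013). The call of Rpl5 was kept in 7 of 15 alternatives and that of Rpl11 in 13, and with library size scaling they were at 0.85 and 0.99, both called. Neither was called between A-iSCs and ASTs (-0.13 and -0.02), though Rpl11 was called at 0.29 without AST replicate 2 and A-iSC replicate 3.

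The 4 X-linked members Rpl10, Rpl36a, Rpl39 and Rps4x were all lower in P56-NPCs than in ASTs, with log2 fold changes of -0.50, -0.53, -0.85 and -0.44, beside the member median of -0.41. With library size scaling they were -0.84, -0.87, -1.19 and -0.78, beside a member median of -0.75, and all were called. Of the paralogs outside the rule, Rpl7l1 had 34.1, 36.4 and 35.0 FPKM in ASTs, 23.0, 23.7 and 29.5 in A-iSCs, 13.6, 13.0 and 12.3 in P56-NPCs and 14.5, 13.8 and 15.6 in P0-NPCs and differed from ASTs by -1.37 ± 0.07 (SE, limma adjusted p = 1.8e-06) in P56-NPCs. Its parent Rpl7, a protein of the large subunit, differed by -0.57. Rpl22l1 was not called in any of the 6 comparisons, from -0.13 to 0.16. Rpl36al was between 0.269 and 1.76 FPKM in all samples, and Rps4l is a pseudogene in the table. Rack1, the scaffold protein of the small subunit, had 58.1, 60.8 and 63.1 FPKM in P56-NPCs and 118, 111 and 145 in P0-NPCs, and was lower in P56-NPCs than in ASTs with a log2 fold change of -1.30 ± 0.10 (SE, limma adjusted p = 1.9e-05). Rps3a1, the mouse gene for the small subunit protein eS1, was not called between any groups.

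A-iSCs and P56-NPCs differed in 29 of 78 members, 20 higher and 9 lower in A-iSCs, where 61% of 15044 genes were called (30.1% higher and 30.9% lower). Library size scaling gave 59 higher and 2 lower, where 55.9% of all genes were higher and 19.2% lower, and leaving out A-iSC replicate 3 gave 49 and 9, beside 37.4% and 36.6%. Leaving out any other of the 6 samples gave 10 to 13 higher and 5 to 9 lower (23.6% to 26.5% and 26.7% to 28.6% of all genes), and the replicate block 12 and 9 (27.1% and 28.9%). The member median was 0.22 beside 0.03 for all genes, and 0.77 beside 0.49 with library size scaling. Rpl27 had 343, 293 and 189 FPKM in A-iSCs and 139, 142 and 140.0 in P56-NPCs, a difference of 0.92 ± 0.21 (SE, limma adjusted p = 0.0081), and of 1.17 without A-iSC replicate 3. Rpl17 was called higher (1.03), but differed by -0.03 once the fragments of its pseudogenes were added. Rps29, Rps21 and Rpl37 were lower in A-iSCs than in P56-NPCs, with log2 fold changes of -0.97 ± 0.13 (SE, limma adjusted p = 4.8e-04), -0.99 ± 0.14 (SE, limma adjusted p = 6.9e-04) and -0.83 ± 0.15 (SE, limma adjusted p = 0.0022). Library size scaling brought them to -0.41 and -0.43, both called, and -0.27 for Rpl37, which was not called, while Rpl27 was at 1.48.

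A-iSCs and P0-NPCs had the fewest calls. Here 4 of 78 members were called, all higher in A-iSCs, while 65.1% of 15170 genes were called (31.5% higher and 33.6% lower). These were Rps27l, Rps27, Rpl23 and Rpl35a, and limma-voom called 6 higher and 0 lower. At an unadjusted p under 0.05, 0 were lower. Rpl23 had 259.8, 248 and 189 FPKM in A-iSCs and 149.8, 153 and 179 in P0-NPCs, a difference of 0.52 ± 0.16 (SE, limma adjusted p = 0.024), and of 0.66 without A-iSC replicate 3. The member median was 0.10, beside -0.02 for all genes. Leaving out any other sample gave 2 or 3 higher (26.9% to 28.9% of all genes), and the replicate block 2 (29.8%). Without A-iSC replicate 3 the count was 26 higher and 0 lower, where 36.9% of all genes were higher and 38.4% lower, so the low number of higher members rests on this sample and without it was near the share of all genes. The few calls do not show that the levels were alike.

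To set scaling aside, the median log2 value of the members was subtracted in each sample before the same test. This centring takes out most of any shift shared by the members by construction, though it does not make the numbers called higher and lower equal. Only single members are therefore read from it. In A-iSCs minus ASTs, 7 members were then lower and 1 was higher than the family (28.4% of all genes called, 17.5% higher and 10.8% lower). Rps27l (-1.42), Rps2 (-1.01) and Rpl41 (-0.56) led the lower ones, and Rps27 was the higher one with 0.62 ± 0.14 (SE, limma adjusted p = 0.0091). In P56-NPCs minus ASTs, 21 were higher and 21 lower (63.4% of all genes, 43.3% higher and 20.1% lower). Rps27a, Rps29 and Rpl37 led with 1.25, 1.18 and 1.11, and without AST replicate 2 were at 1.47, 1.31 and 1.18. In P0-NPCs minus ASTs the counts were 12 higher and 9 lower (62.1%, with 41.4% higher and 20.8% lower), led by Rps27a (0.88), Rps10 (0.71) and Rps7 (0.68). Without AST replicate 2 these were at 1.09, 0.44 and 0.66, and Rps10 was not called. Rps10 is uncertain, since on the deposited scaling its value went from 0.34 to -0.37 in P0-NPCs minus ASTs, neither called, and from 0.65, called, to 0.04, not called, in P0-NPCs minus P56-NPCs once the fragments of its copies were added. In A-iSCs minus P56-NPCs the counts were 8 higher and 16 lower (43.3%, with 14% higher and 29.3% lower), in A-iSCs minus P0-NPCs 2 higher and 7 lower (49.8%, with 18% higher and 31.8% lower), with Rpl7a at -0.74, and in P0-NPCs minus P56-NPCs 24 higher and 21 lower (69.7%, with 33.7% higher and 36% lower). Without A-iSC replicate 3, A-iSCs minus P56-NPCs had 16 higher and 23 lower (17.6% and 49.7% of all genes). A-iSCs minus P0-NPCs then had 8 higher and 22 lower (20.1% and 49.2%). Of the 44 members called between the NPC groups on the deposited scaling, 23 higher and 18 lower ones were called the same way relative to the family.

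**Figure D5:**
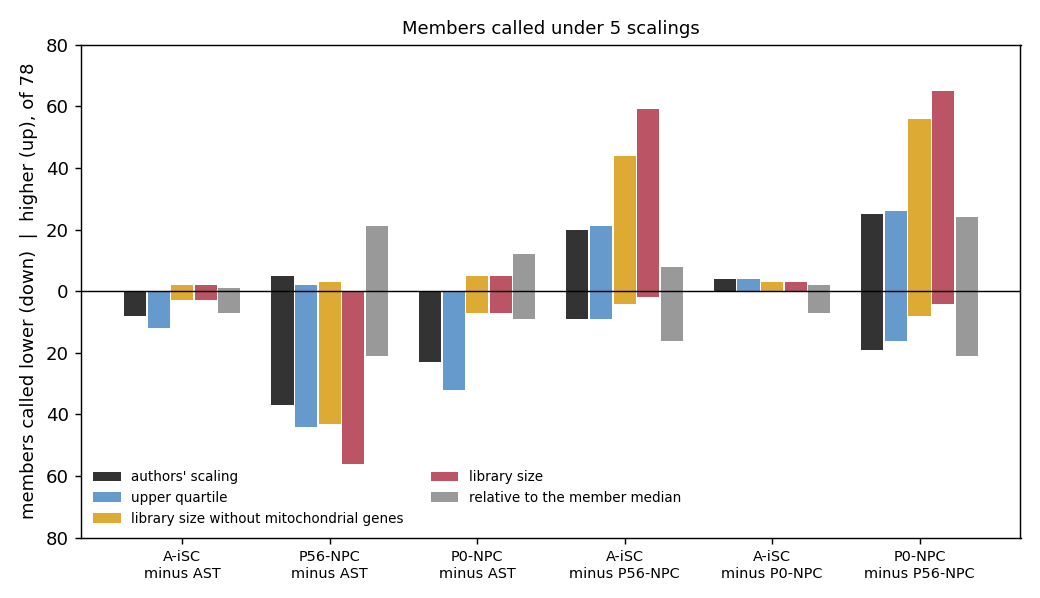
Members called higher (bars up) and lower (bars down), of 78, in the 6 comparisons under 5 scalings. Library size scaling moves P0-NPC minus P56-NPC from 25 higher and 19 lower to 65 and 4, as 61.2% of all genes become higher. For the bars relative to the member median, the centring takes out most of any shift shared by the members, but does not make the bars equal.

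Genes that build or use ribosomes were counted beside the members. Among 20 nucleolar assembly genes, such as Npm1, Ncl and the box C/D protein Nop58, 17 were lower and 0 higher in A-iSCs than in ASTs, with a median of -0.87 against -0.06 for all genes, of which 29.6% were lower and 25.2% higher. With library size scaling 14 were lower (20.9% of all genes), relative to the member median 9 (10.8%), without AST replicate 2 16 (27.1%), without A-iSC replicate 3 18 (33.6%) and without both 18 (39.1%). Nop58 (-1.31) and the rRNA methyltransferase Nop2 (-1.20) were lowest, and Gnl3 (-0.47) and Dkc1 (-0.50) had the smallest differences. Dkc1 was called without A-iSC replicate 3, at -0.74. The same list had 19 lower genes in P56-NPCs (39.8% of all genes) and 17 in P0-NPCs (40.9% of all genes) against ASTs, and 17 higher and 1 lower in P0-NPCs against P56-NPCs (39% and 39.7% of all genes). Without AST replicate 2 the list had 20 and 17 lower genes against ASTs (41.9% and 42.2% of all genes). Summed proliferation markers (Mki67, Top2a, Ccnb1, Mcm5 and Pcna) were 159 to 172 FPKM in ASTs, 69.4 to 72.7 in A-iSCs, 43.7 to 44.0 in P56-NPCs and 88.3 to 99.5 in P0-NPCs. Their part in the nucleolar values was not tested.

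Among 13 genes of RNA polymerase I and its factors, 5 were lower and 1 higher in A-iSCs than in ASTs (Polr1e -1.08 and Taf1b 0.40 at the ends), beside 29.6% lower and 25.2% higher of all genes, and without AST replicate 2, A-iSC replicate 3 or both 5 were lower and 1, 2 and 2 higher. Against P56-NPCs, 12 were higher and 0 lower in A-iSCs (30.1% and 30.9% of all genes), with the same counts without A-iSC replicate 3 (37.4% and 36.6%), with Taf1d at 1.02. Of 76 tested mitochondrial ribosomal protein genes, which serve the ribosomes inside mitochondria, 36 were lower and 0 higher in A-iSCs than in ASTs (median -0.44), 61 lower and 1 higher in P56-NPCs (median -0.76) and 62 lower and 1 higher in P0-NPCs (median -0.80). The shares of all genes called lower were 29.6%, 39.8% and 40.9% in these comparisons. Library size scaling gave 18, 72 and 52 lower (20.9%, 51.6% and 31.6% of all genes). Without AST replicate 2 the numbers lower were 25, 62 and 61 (27.1%, 41.9% and 42.2% of all genes), and in A-iSCs minus ASTs without A-iSC replicate 3 they were 33 lower and 1 higher (33.6% and 29.5%) and without both 40 lower and 10 higher (39.1% and 33.8%). Mrps6 fell furthest, with -1.19, -3.58 and -4.05 in that order. The cytosolic members had 8, 37 and 23 of 78 lower in the same comparisons, and the difference between the lists was not tested.

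The counts of the next 3 lists in A-iSCs minus ASTs stand beside 29.6% lower and 25.2% higher of all genes. Without both AST replicate 2 and A-iSC replicate 3 those shares were 39.1% and 33.8%. Of the 7 elongation factor genes, 3 were lower and 1 higher, and without both samples 4 and 1. Eif5a, whose protein carries hypusine, was lowest (-1.24), and Eef1a2, the isoform of neurons and muscle, was highest (0.94). Eef1a2 was far higher in P56-NPCs than in ASTs, by 3.39 ± 0.13 (SE, limma adjusted p = 4.2e-07). Among 18 other TOP mRNAs, of which 5 are also elongation factors and Npm1 is also nucleolar, 7 were lower in A-iSCs and 2 higher, or 8 and 4 without both samples, led by Nap1l1 (-1.10) and Tpt1 (0.66). In P0-NPCs minus P56-NPCs 13 were higher and 1 lower (39% and 39.7% of all genes), with Hnrnpa1 at 1.94. Of the 13 regulators, A-iSCs had 3 higher and 2 lower, against 3 and 5 without both samples. Eif4ebp1, a translation repressor acted on by mTOR, was lower than in ASTs in A-iSCs, P56-NPCs and P0-NPCs, with log2 fold changes of -1.67 ± 0.17 (SE, limma adjusted p = 1.7e-04), -3.96 ± 0.13 (SE, limma adjusted p = 2.2e-07) and -4.04 ± 0.13 (SE, limma adjusted p = 1.1e-07). Larp1 differed by -0.62 ± 0.13 (SE, limma adjusted p = 0.0061) between A-iSCs and ASTs. Among the Myc genes, which drive ribosome production, Mycn was 3.50 ± 0.11 (SE, limma adjusted p = 9.9e-08) and Mycl 4.63 ± 0.10 (SE, limma adjusted p = 2.1e-08) in P0-NPCs minus ASTs. The value of Myc itself is not given here. In that comparison 0 members were called higher and 23 lower, and the part of the Myc genes was not tested.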

How the data were processed

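RNA was sequenced from 12 samples, 3 in each of 4 groups taken from the labels. The deposited values are FPKM per gene made by the authors, whose processing notes name Bowtie 0.12.2 and the build mm8, while 54899 of 55154 shared gene identifiers had the GRCm38 positions of GENCODE M21, so GRCm38 was used. The counting tool is not given in the sources used here. The study's methods name DESeq2, which needs counts and was not run. Whole fragments were recovered from the steps of the FPKM values (100% whole at a tolerance of 0.01 fragments), 17077780 to 24452419 per sample. A limit of 3 fragments equals 0.103 to 0.187 FPKM for a 1 kb gene and covers counting error only.

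Genes with a mean of at least 1 FPKM in either group were tested on log2(FPKM + 1) with limma 3.58.1 (R 4.3.3, moderated with a mean trend), each pair of groups separately, with Benjamini-Hochberg adjustment over all genes tested and a threshold of 0.05. Fold changes are on that scale and understate changes of low genes. A second test subtracted the members' median in each sample. Named genes were the 5 largest and 5 smallest changes per comparison, the 3 at either end relative to the family, the 3 highest and 3 lowest levels, all untested members and fixed role groups. A few genes of the fixed lists are not reported here and were left out of the lists' sums and counts. A few others were chosen after their values were seen. The members, lists and tests were chosen with earlier results of these data known. Scripts were tested on simulated data. Scaling, filter, pseudocount, model, threshold, limma-voom, a replicate block and left-out samples were varied. The fragments of copies, the mRNA lengths and the fit without both outlying samples were added after seeing the data. Tables were read with Python 3.11.15 and pandas 2.3.3.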

Additional observations from a re-analysis of the deposited data

Results flagged for a closer look

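A signal was found outside the main measurement. The table assigned 572446 fragments over the 12 samples to 315 ribosomal protein pseudogenes, with 34283 to 68843 per sample, or 6.19 to 7.24 per 100 fragments on the members. Adding them and named retrogenes to their members left 8 lower and 1 higher in A-iSCs minus ASTs (29.6% and 25.2% of all genes) and 24 higher and 21 lower in P0-NPCs minus P56-NPCs (39% and 39.7%). Whether these fragments came from the pseudogenes or from the parent mRNAs was not tested.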

How the results depend on the processing

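Most counts depended on the scaling and on single samples. With library size scaling, members higher and lower were 2 and 3 (A-iSC minus AST), 0 and 56 (P56-NPC minus AST), 5 and 7 (P0-NPC minus AST), 59 and 2 (A-iSC minus P56-NPC) and 65 and 4 (P0-NPC minus P56-NPC). Without mitochondrial genes in that size they were 2 and 3, 3 and 43, 5 and 7, 44 and 4, and 56 and 8 in the same order, and upper-quartile scaling left 2 higher in P56-NPC minus AST (35.4% of all genes). Without mitochondrial genes, all-gene shares were 33.1% and 20.1%, 36% and 44.1%, 46.9% and 31.2%, 47% and 22.7%, and 54.5% and 27.4%. Without the filter, 2 were lower in A-iSC minus AST, 3 higher in P56-NPC minus AST, 9 lower in P0-NPC minus AST and 13 higher in A-iSC minus P56-NPC. The shares of all genes were 14.1%, 26.2%, 21.1% and 15% in that order. At an adjusted p under 0.01 (limma) the counts fell to 3 lower (A-iSC minus AST), 0 higher and 21 lower (P56-NPC minus AST), 8 lower (P0-NPC minus AST), 9 higher and 5 lower (A-iSC minus P56-NPC), 2 higher (A-iSC minus P0-NPC) and 16 higher (P0-NPC minus P56-NPC). All-gene shares were 20.4% lower, 35% higher and 34.6% lower, 35.7% lower, 21.3% higher and 25.2% lower, 24.8% higher, and 33.5% higher, in that order. Beyond a log2 fold change of 1 the member counts were 2 lower, 0 higher and 6 lower, 2 lower, 2 higher and 0 lower, 2 higher, and 2 higher and 2 lower, in that order. For these the all-gene shares were 11%, 22.1% and 18.2%, 18.7%, 9.79% and 16.7%, 14.1%, and 13.2% and 17.2%. With all 4 groups in the model, 15 were lower in A-iSC minus AST, 1 lower in A-iSC minus P0-NPC, and 14 higher and 9 lower in P0-NPC minus P56-NPC. The shares of all genes were 34.8%, 36.4%, and 35.6% and 36.7%. Adding copies gave 1 higher in A-iSC minus AST (25.2% of all genes), and leaving out both outlying samples gave 25 (33.8%). With the members' mean as their level, 2 were higher relative to it in A-iSC minus AST, and 4 higher and 4 lower in A-iSC minus P0-NPC. The shares of all genes were 20.5%, and 21.5% and 30.8%. The P56-NPC share of 2.34% was 2.82% without mitochondrial genes in the total and 2.87% of nuclear coding fragments.

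Leaving out 1 sample at a time gave, for higher and lower, 0 to 2 and 3 to 6 in A-iSC minus AST, 1 to 17 and 23 to 41 in P56-NPC minus AST, 0 to 2 and 8 to 27 in P0-NPC minus AST, 10 to 49 and 5 to 9 in A-iSC minus P56-NPC, 2 to 26 and 0 to 1 in A-iSC minus P0-NPC, and 18 to 25 and 15 to 26 in P0-NPC minus P56-NPC. Among all genes the first 2 comparisons had 19.9% to 29.5% and 23.3% to 33.6%, and 36.8% to 40.8% and 36.5% to 41.9%. The next 2 had 36.3% to 39.1% and 38.1% to 42.2%, and 23.6% to 37.4% and 26.7% to 36.6%. The last 2 had 26.9% to 36.9% and 29.5% to 38.4%, and 36.1% to 37.8% and 37.6% to 39.1%. Relative to the family the ranges were 0 to 3 and 2 to 10, 16 to 26 and 15 to 27, 6 to 18 and 5 to 10, 3 to 16 and 8 to 23, 2 to 8 and 2 to 22, and 19 to 25 and 15 to 21, in the same order. There the all-gene shares began with 11.1% to 17.3% and 6.14% to 18.9%, and 37.7% to 44.9% and 16.1% to 32.1%. They went on with 35.3% to 41.5% and 16% to 32%, and 9.84% to 17.6% and 22% to 49.7%. They ended with 13.1% to 20.1% and 23.8% to 49.2%, and 29.5% to 37.8% and 32.4% to 37.8%.

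Replicate numbers are shared between groups, but not every same-numbered pair deviated together. In A-iSC and AST the correlations were -0.41 for number 1 and 0.35 and 0.45 for numbers 2 and 3, and they were at most 0.10 in the other comparisons, and 0 to 3 of 6 samples were closest to their own number. With the replicate block, 12 were lower in P0-NPC minus AST, 12 higher in A-iSC minus P56-NPC, 2 higher in A-iSC minus P0-NPC and, relative to the family, 4 higher and 9 lower in A-iSC minus P56-NPC. The shares of all genes were 40.3%, 27.1%, 29.8%, and 10.5% and 26.4%.

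Of the values of named genes under the alternatives, 2389 kept their direction and call, 263 lost the call, 100 gained it, 126 moved and 6 reversed. The reversed ones were Rps27 in P0-NPC minus AST (0.23) and Rpl17 in A-iSC minus P56-NPC (-0.031), both with copies added, and Fau (0.39 and 0.19) and Rps27a (0.27 and 0.069) in P0-NPC minus P56-NPC, with library size scaling and without mitochondrial genes in it. The causes were not tested, other than the stricter thresholds and the smaller number of samples. With 3 samples per group, small differences of members could pass unseen.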
